A study of Zea mays with 4 samples.

Results

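RPL17 and RPL29 are gene symbols for proteins of the large ribosomal subunit. They are 2 of the 22525 IDs in a table of transcript counts from whole maize (Zea mays) seedlings. They were taken as the rows whose ID is exactly RPL17 or RPL29 in upper case, and they were picked because they differed in opposite directions between the genotypes, RPL17 lower and RPL29 higher in the hybrid. The values that picked them are therefore described here without a test. The 4 libraries came from the inbred B73, the line whose genome serves as the maize reference, and from an F1 hybrid of the lines A188 and B73 that the labels also call HiII. Each genotype had a library coded RPI10 and a library coded RPI11. Roots and shoots of V3 seedlings were ground together after growth in a greenhouse (days of 14 h, nights of 10 h). The labels do not say whether a library held 1 plant or several, or what the codes stand for. Where libraries are not separate plants, the p-values measure only the spread between these libraries, which may be technical.

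Ribosomes are built from RNA and many proteins, and a plant cell holds 3 separate kinds of them. Cytosolic ribosomes are made of nuclear-encoded proteins only. Plastid and mitochondrial ribosomes combine proteins encoded in the organelle's own genome with proteins encoded in the nucleus and imported. Names such as L17 and L29 are used for proteins of both the cytosolic and the bacterial type of ribosome, so the symbols alone do not place either protein in a compartment. Ribosomal protein genes are known for high expression in growing tissue, and those of the plastid ribosome are most active in young green leaf.

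Letter case aside, a search of RefSeq genes (Zm-B73-REFERENCE-NAM-5.0) found RPL29 as a synonym of 1 gene, LOC541790, also called L29. RPL17 was found as a synonym of LOC541667, and the same letters stood inside a synonym of another gene, LOC100276492. The table gives no compartment for either protein. The counts were made on another build, so no coordinates are given. Ribosomal proteins usually have several gene copies in maize, and how reads of near-identical copies were counted is not given in the sources used here. The values below are therefore those of the deposited rows, and reads of other copies may be among them or missing from them.

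Library totals ran from 275271 to 1341976 counts, and both B73 libraries were shallower than both hybrid libraries, so depth moved with genotype. Levels are given as CPM, the usual counts relative to the library total, after scaling by the trimmed mean of M-values (TMM), a factor that sets most IDs to equal level between libraries. On that scale a single count was worth 2.78 CPM in the shallowest library and 0.979 CPM in the deepest. Of the shoot markers looked for, CAB1, a light-harvesting protein, had 146 and 200 counts in B73 and 1951 and 982 in the hybrid, in the order RPI10 and RPI11. psbA, a core protein of photosystem II, had 108 to 537 counts. The symbols rbcL, psaA and TIP2-3 had no row. PIP2-5, an aquaporin common in roots, had 3 to 11 counts, and was the only root marker looked for that had a row, so root tissue was hardly checked.

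RPL17 was counted 21 times in the B73 library coded RPI10 and 27 times in the one coded RPI11. It was counted 16 and 14 times in the hybrid libraries, although those were deeper. The B73 counts were worth 58.4 CPM (95% Poisson interval 36.2 to 89.3) with RPI10 and 52.8 CPM (34.8 to 76.8) with RPI11. In the hybrid they were 15.7 CPM (8.95 to 25.4) and 19.9 CPM (10.9 to 33.4). Both B73 libraries lay above both hybrid libraries, the direction RPL17 was picked for. For 76.2% of the 3282 IDs tested below, the hybrid and B73 libraries did not overlap either. The intervals, like all those on counts here, cover counting error only.

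RPL29 was counted 24 and 10 times in B73 and 967 and 217 times in the hybrid, in the order RPI10 and RPI11. The levels were 66.8 CPM (42.8 to 99.4) and 19.6 CPM (9.38 to 35.97) in B73. They were 946 CPM (888 to 1008) and 309 CPM (269 to 353) in the hybrid. Both hybrid libraries lay far above both B73 libraries, the direction RPL29 was picked for. Inside each genotype the RPI10 library was the higher one, with intervals that did not overlap.

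**Figure D1:**
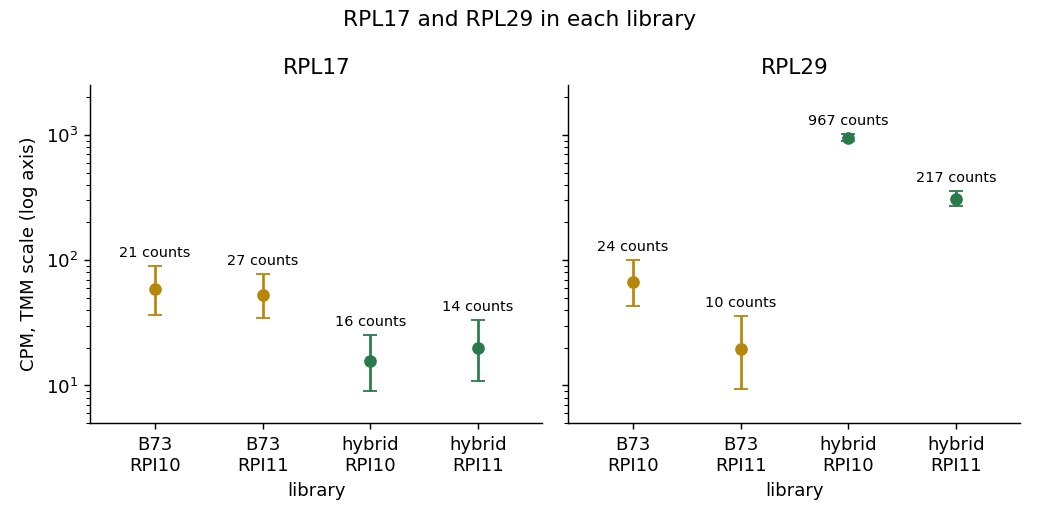
Level of RPL17 (left) and RPL29 (right) in each of the 4 libraries, as CPM on the TMM scale on a log axis, with the count above each point and bars for the 95% Poisson interval. RPL17 is near 55 CPM in both B73 libraries and below 20 CPM in both hybrid libraries, while RPL29 is highest in the hybrid library coded RPI10 and lowest in the B73 library coded RPI11.

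RPL17 averaged 55.6 ± 3.99 CPM over the B73 libraries and 17.8 ± 3.02 CPM over the hybrid ones (SD, n = 2 of each genotype). The fitted log2 fold change was -1.65 (SE 0.43), which is a level 3.13-fold lower in the hybrid. For RPL29 the means were 43.2 ± 33.4 CPM and 628 ± 451 CPM (SD, n = 2 each), and the fitted log2 fold change was 3.91 (SE 0.65), which is 15.0-fold higher in the hybrid. That log2 value was 4.98 without the B73 library coded RPI10 and 3.27 without the one coded RPI11, and 2.91 and 4.51 without the hybrid libraries coded RPI10 and RPI11. The SD of RPL29 was large against its mean in both genotypes, with the RPI10 library the higher one in each. These directions are what the symbols were chosen for. Among the 3282 IDs tested, the hybrid and B73 libraries did not overlap for 76.2%, and 50.6% were called by edgeR's quasi-likelihood test with a Benjamini-Hochberg adjusted p below 0.05, so a difference between genotypes was common in this table. RPL29 held rank 59 from the highest of those 3282 fold changes, and rank 2 among the 90 symbols tested. RPL17 held rank 622 from the lowest, and rank 10 from the lowest among the symbols.

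RPL17 passed the filter on low counts through B73: both B73 libraries were above the filter's level of 15.5 CPM of the library total, and 1 of the hybrid libraries was. RPL29 was above that level in all 4 libraries. In whole seedlings, fewer cells that express a gene and less of its RNA per cell cannot be told apart. The directions did not rest on the scaling. Library totals alone moved the median log2 fold change of all tested IDs to -0.76, from -0.04 with TMM. RPL17 then stood at -2.37 and RPL29 at 3.17, on opposite sides of that median.

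The ratio of both genes inside a library needs no scaling, and differences in gene length cancel when the ratio is compared between libraries. In B73, RPL29 had 1.14 counts per RPL17 count with RPI10 (95% exact binomial interval 0.610 to 2.16) and 0.370 with RPI11 (0.160 to 0.790). In the hybrid it had 60.4 (37.0 to 106) and 15.5 (9.04 to 28.8). Inside each genotype the RPI11 ratio was the lower one. The log2 ratio averaged -0.62 ± 1.15 over the B73 libraries and 4.94 ± 1.39 over the hybrid ones (SD, n = 2 of each). The difference of 5.56 is a 47.0-fold shift between the genotypes. It ran from 23.8-fold without the hybrid library coded RPI10 to 92.9-fold without the hybrid library coded RPI11, and was 82.6-fold and 26.8-fold without the B73 libraries coded RPI10 and RPI11. Since the members were picked for opposite directions, the sign of this shift is no finding, and its size is a description.

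**Figure D2:**
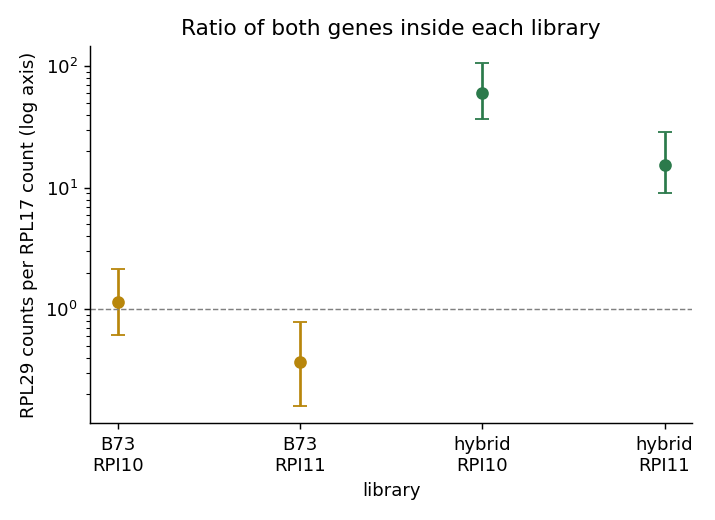
RPL29 counts per RPL17 count inside each library, on a log axis, with 95% exact binomial intervals and a dashed line at equal counts. With RPI10 the ratio is 1.14 in B73 against 60.4 in the hybrid, and with RPI11 it is 0.370 against 15.5.

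The codes gave a further comparison, which did not choose the members: RPI11 against RPI10, with genotype as a term in the model. An earlier result for RPL29 was known, however. With 1 library per code and genotype, the p-value does not measure spread between libraries alike in both. RPL29 was lower with RPI11 in both genotypes, whereas RPL17 did not pass the test. For RPL29 the fitted log2 fold change was -1.65 (SE 0.26), a level 3.14-fold lower with RPI11 (edgeR quasi-likelihood adjusted p = 0.000550, lower in 2 of 2 genotypes). Such calls were rare over the tested IDs as a whole: 3.26% of the 3282 passed, and 2.13% were lower with RPI11. They were more common with at least 10 counts in every library, where 113 of 970 tested IDs passed, RPL29 among them. RPL29 held rank 28 from the lowest of the 3282 fold changes and rank 3 from the lowest of the 90 symbols. Without genotype in the model RPL29 was not called (edgeR adjusted p = 1.00), since the difference between the genotypes then counts as spread within each code. With genotype as a term the adjusted p ran from 5.44e-06 to 0.0219 over the other scalings, filters, depth and tool.

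For RPL29, the RPI11 library of B73 was 3.42-fold lower (counting interval 1.57 to 8.002) and that of the hybrid was 3.06-fold lower (2.64 to 3.57), on the TMM scale. The log2 ratios were -1.77 in B73 and -1.61 in the hybrid, a difference of 0.16. No test of that difference was possible, because each genotype has 1 library per code. In turn, the ratio of hybrid to B73 was 14.2 (9.46 to 22.2) within RPI10 and 15.8 (8.43 to 33.4) within RPI11. These intervals overlapped.

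For RPL17 the fitted log2 fold change of RPI11 over RPI10 was 0.06 (SE 0.38, edgeR adjusted p = 0.974), and the direction differed between genotypes. The ratio was 0.904 within B73 (0.492 to 1.68) and 1.27 within the hybrid (0.575 to 2.78). Both intervals span a factor of more than 3 and include 1, so counts this low could not show a change of moderate size. The ratio of hybrid to B73 was 0.268 (0.131 to 0.539) within RPI10 and 0.377 (0.183 to 0.745) within RPI11. Whether the codes mark plants, preparations or sequencing indexes was not tested, and with 1 library per code and genotype these cannot be told apart.

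**Figure D3:**
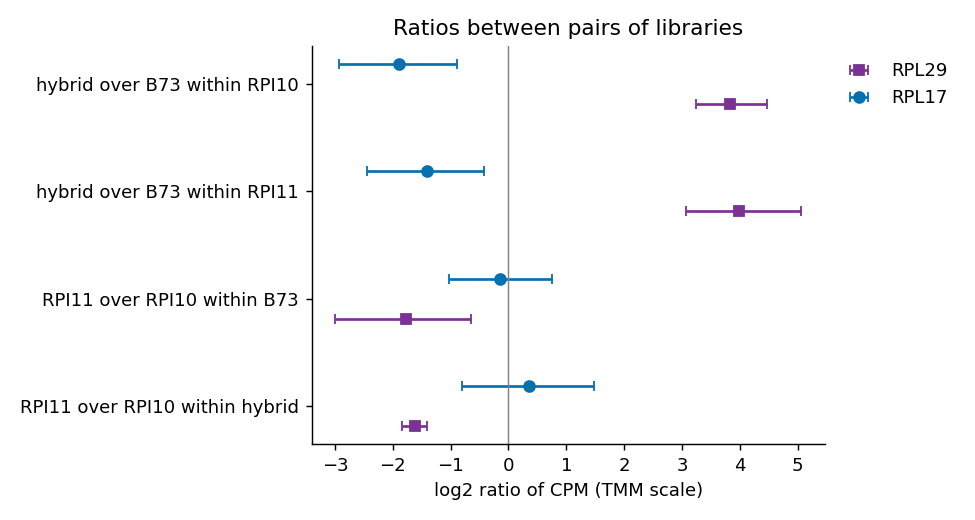
log2 ratio of CPM on the TMM scale between pairs of libraries, for RPL17 (circles) and RPL29 (squares), with 95% counting intervals. The ratios of hybrid to B73 lie on opposite sides of 0 for the genes in both codes, and between codes RPL29 lies below 0 in both genotypes while both intervals of RPL17 include 0.

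Other ribosomal protein symbols in the table were taken as lists, with the genotype test applied to them because they were not picked on it. Of the upper-case symbols beside the members, 4 are described here, 3 of them tested, and none of the 3 passed the genotype test. RPP2B, an acidic protein of the cytosolic ribosome's stalk, had a log2 fold change of 0.64 (edgeR adjusted p = 0.275). RPS21 had 0.46 (adjusted p = 0.504) from 5 to 15 counts per library. RPS4, whose symbol matched 4 RefSeq entries, had 16 and 21 counts in B73 and 28 and 14 in the hybrid. Its log2 fold change was -0.83 (edgeR adjusted p = 0.123), and it was called lower in the hybrid with library totals alone, with drawn counts and when each library had to hold 10 counts of an ID. RPL30 had 0 to 2 counts in each library and was not tested. Besides RPL17, RPS4 was thus the only one of the tested ribosomal protein symbols described with a negative fitted fold change on the TMM scale. With library totals RPP2B, RPS21 and rps16 were negative too, at -0.075, -0.25 and -0.03, and none of these 3 passed the test.

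Lower-case symbols follow the naming of plastid genome genes, although rps2 and rps3 are also names of mitochondrial genes in maize and the table does not say which were counted. Of 12 small-subunit symbols looked for, 4 had a row and all 4 were tested. Of these, 3 rose in the hybrid: rps18, rps2 and rps3. The most changed, rps18, had 78 and 89 counts in B73 and 1582 and 841 in the hybrid. Its level went from 196 ± 30.4 CPM to 1373 ± 248 CPM (log2 fold change 2.81, SE 0.40, edgeR adjusted p = 0.000272). For rps2 the log2 fold change was 2.16 (SE 0.42, edgeR adjusted p = 0.00147). rps16 was at 0.70 (edgeR adjusted p = 0.150). It passed the threshold with the code as a block.

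Of 9 large-subunit plastid symbols looked for, 2 had a row, and both rose. For rpl14 the counts were 163 and 140 in B73 and 1903 and 776 in the hybrid, and the log2 fold change was 2.03 (SE 0.43, edgeR adjusted p = 0.00234). For rpl33 it was 1.503 (SE 0.40, edgeR adjusted p = 0.00796). With library totals rps3 and rpl33 no longer passed (edgeR adjusted p = 0.0545 and 0.114), and with counts drawn to the smallest library total rpl33 did not (edgeR adjusted p = 0.103). Without the B73 library coded RPI10 rps3 did not pass (edgeR adjusted p = 0.0535), and without the B73 library coded RPI11 rpl33 did not (edgeR adjusted p = 0.117). Over the upper-case and plastid lists together, without RPL17 and RPL29, 5 of the 9 tested symbols described were called between genotypes, against 50.6% of all tested IDs. All 5 were higher in the hybrid, where 25.3% of tested IDs were called. The median log2 fold change of the 9 was 1.503 on the TMM scale, against -0.04 for all tested IDs. Of the green shoot markers, CAB1 rose as well, with a log2 fold change of 2.05 (SE 0.39, edgeR adjusted p = 0.00123). psbA was at 0.73 (edgeR adjusted p = 0.114), and at 0.0092 with library totals (edgeR adjusted p = 0.986). It passed with the code as a block (edgeR adjusted p = 0.00739). The part of green tissue content in these values was not tested.

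**Figure D4:**
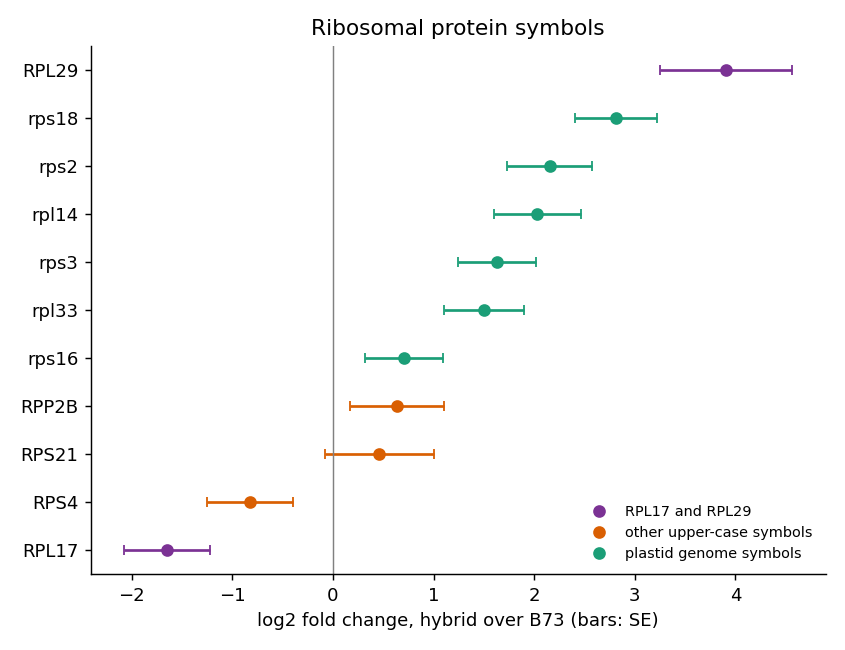
Fitted log2 fold change of the hybrid over B73 for the ribosomal protein symbols described, with bars for the SE. RPL29 at 3.91 lies at the upper end, RPL17 at -1.65 lies at the lower end, and the plastid genome symbols lie between 0.70 and 2.81.

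Among 3 translation factor symbols, infA, the plastid initiation factor, rose in the hybrid. It was counted 60 and 73 times in B73 and 2223 and 417 times in the hybrid, in the order RPI10 and RPI11 (log2 fold change 3.16, SE 0.57, edgeR adjusted p = 0.000840). TIF, which RefSeq also lists as GOS2, a translation initiation factor, was at -0.44 (edgeR adjusted p = 0.408) on the TMM scale, from 17 to 31 counts per library. With library totals it was called lower in the hybrid. EFTS, listed there with the synonym EF-TsMt, had 0 to 4 counts and was not tested.

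Between codes, rpl14 and infA were called beside RPL29, and both were lower with RPI11. The log2 fold change was -0.74 for rpl14 (SE 0.20, edgeR adjusted p = 0.0401) and -1.21 for infA (SE 0.28, edgeR adjusted p = 0.0168). Neither was called with counts drawn to the smallest total (edgeR adjusted p = 0.0883 and 0.125), and rpl14 was not called by DESeq2 or without a filter. None of the other 8 tested ribosomal protein symbols described here passed. The fold changes of those 8 ran from -0.50 for rps16 to 0.77 for RPP2B. For infA the level in B73 was 167 CPM with RPI10 and 143 CPM with RPI11, and in the hybrid 2175 CPM and 594 CPM, so the codes lay farther apart in the hybrid, which was not tested. Of all 90 symbols tested, 9 (10%) were called between the codes, against 3.26% of the 3282 tested IDs. Each of the 9 was lower with RPI11, where 2.13% of tested IDs were called. When each library had to hold 10 counts of an ID, 113 of 970 IDs passed, 57 of them lower with RPI11. The other 6 were cemA, ndhE, psaC, ycf70, ndhH and psbC, names of plastid genome genes, so RPL29 is the only one of the 9 with an upper-case symbol. Among these 9 its log2 fold change was the most negative after that of cemA, an envelope membrane protein, at -2.07.

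**Figure D5:**
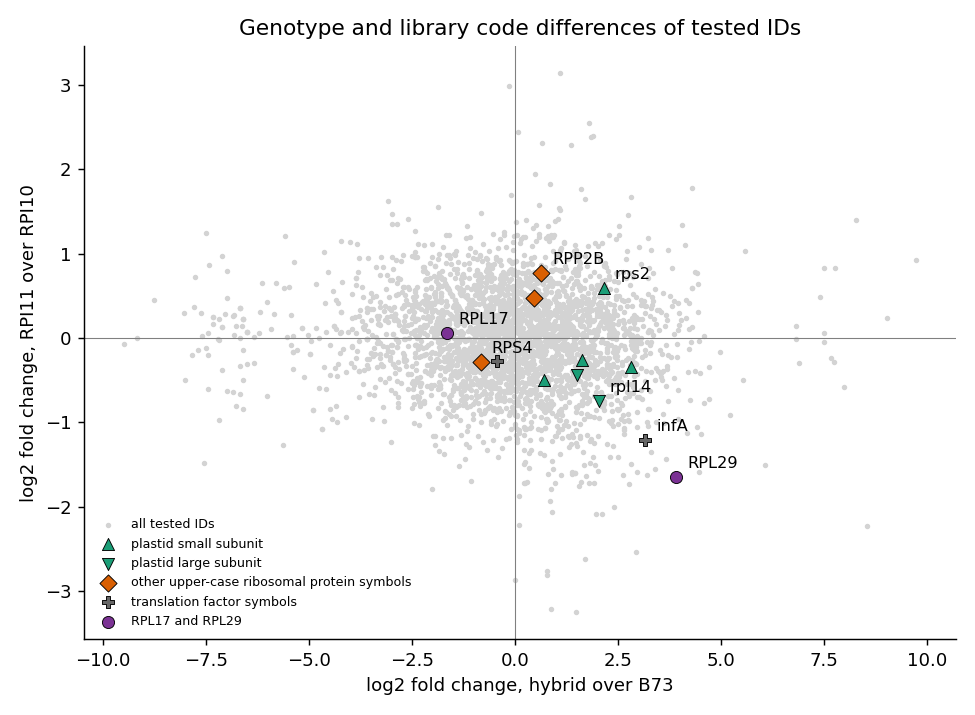
Fitted log2 fold change of the hybrid over B73 (x axis) against that of RPI11 over RPI10 (y axis) for the 3282 tested IDs in grey, with ribosomal protein and translation factor symbols marked. RPL29 lies at 3.91 and -1.65, near infA, while RPL17 lies at -1.65 and 0.06.

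The IDs most like each gene were found from the 4 library values, as the distance between log2(CPM + 1) profiles on the TMM scale after subtracting each ID's own mean, over 3187 tested IDs with a mean of 10 CPM or more. With 4 libraries in all, many IDs share a profile, and the distances are a description. For RPL29 the nearest symbol was ndhE, a subunit of the plastid NADH dehydrogenase-like complex, at a distance of 1.00 and rank 7. Its counts were 3 and 1 in B73 and 66 and 15 in the hybrid. The nearest IDs of any kind were Zm00001d020557 at 0.417, with 4 and 2 counts in B73 and 242 and 55 in the hybrid, and Zm00001d003459 at 0.524, with 13 and 5 counts in B73 and 346 and 85 in the hybrid. These 3 neighbours were higher in the hybrid and, within each genotype, higher with RPI10. They were chosen by likeness to RPL29 over these same libraries, so the shared directions are no separate finding.

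For RPL17 the nearest IDs were Zm00001d039091 at 0.0725, with 14 and 18 counts in B73 and 11 and 9 in the hybrid, and Zm00001d044599 at 0.119, with 13 and 17 counts in B73 and 9 in each hybrid library. The nearest symbols were BIPE2, a chaperone of the endoplasmic reticulum, at 0.361 and rank 46, and ACK2 at 0.422 and rank 79. BIPE2 had 15 and 23 counts in B73 and 12 and 14 in the hybrid, so the comparison rests on few counts. RPL29 was at a distance of 5.74 from RPL17, rank 3136 of the IDs ordered by likeness to RPL17.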

How the data were processed

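The authors deposited whole-number transcript counts per ID in 1 table with a column for each of the 4 libraries. The libraries followed a form of CEL-Seq2, per the labels' protocols, in which read 1 carried a molecular identifier (10 bp) and a barcode for the sample (6 bp). Such libraries read transcripts near the 3′ end. The submitters' processing notes name CASAVA 1.4, HISAT2, UMI-tools and the build B73 RefGen_v4. The counting step, the annotation and whether identifiers were collapsed are not given in the sources used here. Totals ran from 275271 to 1341976 counts.

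RPL17 and RPL29, the lists and the tests were chosen with earlier results of these data known. Counts were fitted with edgeR 4.0.16 in R 4.3.3: filterByExpr with a minimum count of 10 left 3282 IDs, library totals were scaled by TMM factors, and the quasi-likelihood test (Benjamini-Hochberg, threshold 0.05) was run over all of them. One fit had genotype alone and another had genotype and code. Each SE is the size of the log2 fold change over the square root of its F. Intervals at 95% (exact Poisson, exact binomial) used scipy 1.17.1. Named IDs were the members, up to 2 called per list and direction, and the 2 nearest symbols and 2 other nearest IDs per member; other list members were named after their values were seen. Other scalings, filters, depth, DESeq2 1.42.0 and leaving out libraries were tried. The fit was tested on simulated data. One symbol of the upper-case list is not reported here.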

Additional observations from a re-analysis of the deposited data

Results flagged for a closer look

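RPL17 moved in opposite directions between the codes in the genotypes: the log2 ratio of RPI11 to RPI10 on the TMM scale was -0.15 in B73 and 0.35 in the hybrid. The difference was not tested, since each genotype has 1 library per code. It rests on 21 and 27 counts in B73 and 16 and 14 counts in the hybrid, and both counting intervals include a ratio of 1.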

How the results depend on the processing

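RPL17 stayed lower and RPL29 stayed higher in the hybrid under all 13 alternatives run for each. The members were picked for these directions in the same libraries, so this is a description and no support. For RPL29, against a log2 fold change of 3.91, the values were 3.17 with library totals, 4.26 without a filter, 3.69 with at least 10 counts in every library, 3.37 with counts drawn to the smallest total, 4.13 with DESeq2, 3.03 and 3.26 within RPI10 and RPI11 on log2(CPM of the total + 1), and from 2.91 to 4.98 without 1 library. For RPL17, against -1.65, they were -2.37 with library totals, -1.33 without a filter and -1.85 with at least 10 counts in every library. They were -1.96 with drawn counts and -1.42 with DESeq2. Within RPI10 and RPI11 they were -2.58 and -2.01 on log2(CPM of the total + 1). Without 1 library, on the TMM scale, they ran from -1.81 to -1.46.

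Between codes, RPL29, against -1.65, was -1.62 and not called with genotype left out (edgeR adjusted p = 1.00), -1.78 within B73 on log2(CPM of the total + 1), and from -1.76 to -1.60 without 1 library. RPL17, near 0 at 0.06, was -0.18 with drawn counts, -0.19 within B73, and from -0.15 to 0.36 without 1 library. The log2 shift of the count ratio, 5.56, ran from 4.57 to 6.54 without 1 library.

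Over all IDs, the 1662 genotype calls (829 higher, 833 lower) became 401 with at least 10 counts in every library, 731 with drawn counts, 757 with DESeq2 (551 higher, 206 lower) and from 1054 to 1665 without 1 library, an alternative added after seeing the data, where the lone library of a genotype is assumed to vary like the others. Library totals gave 482 higher and 1357 lower. The 107 code calls among 3282 tested IDs became 113 of 970 with at least 10 counts in every library. They became 41 of 1432 with drawn counts and 35 of 1127 with DESeq2. They fell to 0 with genotype left out, where edgeR gave 9 IDs an unadjusted p under 0.05. The genotype calls came from 970 tested IDs under that strict filter, 1432 with drawn counts and 4162 with DESeq2, against 3282. Apart from the number of IDs tested, the cause of these changes was not tested.

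A fit that kept the code as a replicate block gave 1870 genotype calls, RPL17 stood at -1.64 and RPL29 at 3.88. Libraries of 1 code deviated together from the means of their genotypes, with a correlation of 0.248 across IDs. With a pair of codes this does not show that the codes pair the libraries. The counts of RPL17, 14 to 27 per library, limit the precision of each of its values.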
